A study of Mus musculus with 14 samples.

Results

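PeriFibro cells and Fibro cells sorted from the lungs of male mice 7 days after bleomycin were compared across all genes, with 3 arrays for each population. Both populations came from Foxd1-Cre;Rosa26-tdTomato mice that also carried Coll-GFP, and all 6 arrays followed a single intratracheal dose of 0.8 U/kg. PeriFibro cells carried both reporters, that is, they were FoxD1-derived and Coll-GFP+. Fibro cells were Coll-GFP+ without the FoxD1 lineage label. The 6 arrays are part of a series of 14, which also holds FoxD1-derived cells without GFP (Peri) and uninjured arrays, 2 for each population, from female mice given saline. Cre was under the Foxd1 promoter, so tdTomato marks descent from a Foxd1-expressing cell and not current Foxd1 expression, and GFP marks activity of the collagen transgene. By the design of the sort, the populations share 1 reporter and differ in lineage label. Markers of endothelial cells, leukocytes and epithelium were also detected on these arrays. How much of a difference came from such cells was not tested.

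Pericytes sit in the basement membrane of capillaries, where they contact endothelial cells through Notch, PDGF and TGF-beta family signals. Cells of the Foxd1 lineage include lung pericytes, and after injury some of them make collagen together with other stromal fibroblasts. Bleomycin breaks DNA and kills alveolar epithelium, and the days after it are a phase of inflammation in which neutrophils and monocytes enter the lung before collagen accumulates. The comparison asks how collagen reporter positive cells of pericyte descent differ from collagen reporter positive cells of other descent in that phase.

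The arrays were 1-colour Illumina bead arrays, and a probe was kept when its detection p was under 0.05 on at least 2 of the 14 arrays. This gave 12444 genes, each followed by its brightest kept probe, on a background-corrected, quantile-normalized log2 scale. Between 39.8% and 44.4% of probes were detected on each of the 6 arrays. The Y-linked gene Eif2s3y read 7.39 to 9.25 on all 6 and Xist was below detection on all 6 (4.24 to 4.31), as the labelled sex has it. Foxd1 itself was below detection on every array of the series, and the reporters have no value here. Col1a1 and Col3a1, which code for fibrillar collagen chains, were detected on all 6 arrays, but some of their values were close to background. A pair of arrays stood apart from its group: across genes PeriFibro replicate 3 was closest to Fibro replicate 2 (r = 0.951), and Fibro replicate 2 was closest to an uninjured Fibro array (r = 0.956), whereas PeriFibro replicates 1 and 2 correlated at 0.984 and Fibro replicates 1 and 3 at 0.977. Without both of these arrays 342 genes were called higher and 522 lower, against 342 and 416 with them. Nothing in the labels ties the 3 replicates of a population to different mice, so the p-values measure only the spread between the arrays, which may be technical.

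At day 7, 758 of the 12444 genes (6.09%) differed between PeriFibro and Fibro at an adjusted p under 0.05 and at least 2-fold (limma, two-sided, Benjamini-Hochberg over all genes). Of these, 342 (2.75%) were higher and 416 (3.34%) lower in PeriFibro. The lower genes differed by more: their median log2 difference was -1.83, and 152 of them passed 4-fold, whereas the higher genes had a median of 1.33 and 15 passed 4-fold. The median over all genes was 0.04. The 3 PeriFibro values lay entirely above or below the 3 Fibro values for 2890 genes (23.2%), including 341 of the 342 higher and 414 of the 416 lower calls. Non-overlap therefore adds little to a call, and it was also part of the rule by which the largest differences were named. Every call kept its direction when any 1 array was left out, but for genes without overlap this is bound to happen. The calls themselves depended on single arrays: 43 of the higher and 133 of the lower genes were called in all 6 such fits. In all 6 and also in the normalized values that the authors deposited, 10 and 60 were called. In a bulk sample, fewer cells of a type and less RNA per cell cannot be told apart, and this holds for every difference below.

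Mmrn1, Reln and Slc45a3 were among the genes with the largest differences towards PeriFibro. Mmrn1, a multimerin of vessel walls and platelets, read 9.79, 9.75 and 9.74 in PeriFibro and 6.98, 6.99 and 6.02 in Fibro. On the log2 scale PeriFibro exceeded Fibro by 3.09 (SE 0.41, limma adjusted p = 0.0043), or 8.53-fold. Reln, the secreted glycoprotein reelin, read 10.97, 10.67 and 9.99 against 7.70, 7.90 and 7.44. Reln was 7.28-fold higher (SE 0.49 on the log2 scale, adjusted p = 0.0087), although a second kept Reln probe differed by only 0.29. Slc45a3, a sugar transporter family member, read 7.18, 7.31 and 8.18 against 4.48, 4.96 and 4.87, a 6.92-fold difference (adjusted p = 0.0049).

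Ptx3, the long pentraxin of innate defence and matrix assembly, read 7.59, 6.93 and 9.13 in PeriFibro and 4.66, 5.63 and 5.35 in Fibro, and was 6.36-fold higher (adjusted p = 0.0099, limma). PeriFibro replicate 3 was the highest of the 3. Tbx1, a T-box transcription factor of pharyngeal mesoderm and lymphatic development, read 8.03, 7.37 and 7.61 against 5.19, 5.18 and 5.11, which is 5.69-fold (adjusted p = 0.0058). Stc1, the glycoprotein hormone stanniocalcin, read 7.82, 7.91 and 6.98 against 5.83, 4.90 and 5.76, and was 4.21-fold higher (adjusted p = 0.0099). None of these genes overlapped between the groups, which the rule that named them required. Car14, a membrane carbonic anhydrase, was 3.94-fold higher (adjusted p = 0.0043), Dhh, a hedgehog ligand, 3.53-fold (adjusted p = 0.0043), and Sema3a, a secreted axon and vessel guidance cue, 3.18-fold (adjusted p = 0.0052). The calls of the 9 genes named since Mmrn1 held with any 1 of the 6 arrays left out. In the deposited normalized values Mmrn1 and Reln were called and the other 7 were not, with differences of 0.27 for Sema3a to 0.88 for Car14.

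The chemokine Ccl21, which draws CCR7+ dendritic cells and lymphocytes, was among the largest differences but less certain. Ccl21a read 14.38, 14.29 and 14.15 in PeriFibro and 11.26, 11.19 and 11.61 in Fibro, 7.57-fold higher (adjusted p = 0.026, limma), and Ccl21c was 7.78-fold higher (adjusted p = 0.020). The Ccl21 genes are near-identical copies whose probes can share signal, so they are not separate observations. The groups lay far apart on the 6 arrays, yet the Ccl21a call was lost without PeriFibro 1, PeriFibro 2, Fibro 1 or Fibro 3, with adjusted p up to 0.097.

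**Figure D1:**
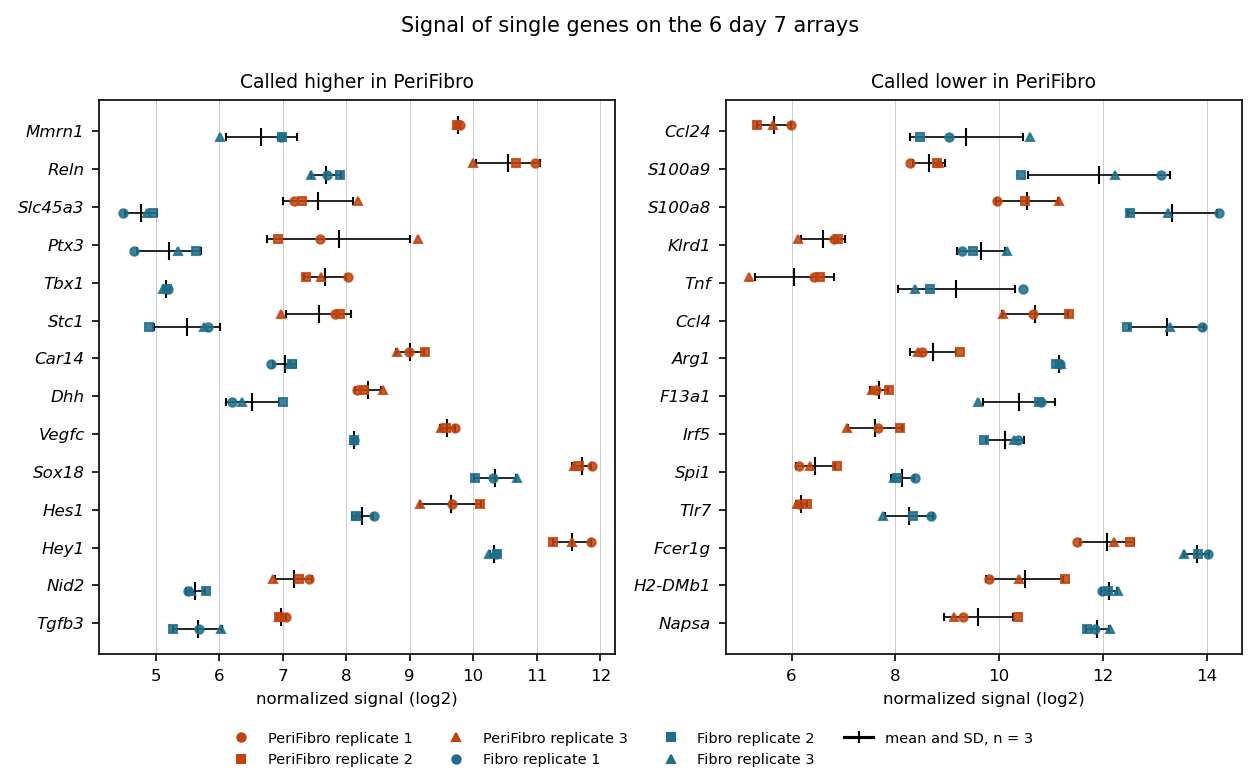
Normalized log2 signal (horizontal axis) of 14 genes called higher and 14 called lower in PeriFibro, on the 3 PeriFibro and 3 Fibro arrays of day 7; symbols are replicates, and the bar shows the mean and SD (n = 3). The groups do not overlap for any gene shown, as for nearly all called genes. Among the genes shown Ccl24, S100a9 and Tnf differ by the most.

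Notch genes were higher in PeriFibro. The ligands Dll1 and Dll4 and the target genes Hes1, Hey1 and Nrarp were called higher, 5 of 13 tested against 2.75% of all genes. None was called lower. The median log2 difference of the 13 was 1.03. Hes1, a repressor induced directly by Notch, read 9.66, 10.11 and 9.16 in PeriFibro and 8.44, 8.16 and 8.17 in Fibro, 2.62-fold higher (adjusted p = 0.012, limma). Hey1, a related repressor of the vessel wall, read 11.86, 11.26 and 11.55 against 10.36, 10.38 and 10.25, 2.34-fold higher (adjusted p = 0.014). Dll1 was 2.70-fold higher (adjusted p = 0.026), Dll4 2.52-fold (adjusted p = 0.043) and Nrarp 2.05-fold (adjusted p = 0.022). A second Dll4 probe differed by 0.28. The receptors Notch1 (0.79, adjusted p = 0.13), Notch3 (0.95, 0.27) and Notch4 (1.30, 0.26) were not called. The number of Notch genes called fell to 0 without PeriFibro replicate 1, 1 without Fibro replicate 1 and 2 without PeriFibro 2 or Fibro 3, and was 5 without PeriFibro 3 and 4 without Fibro 2. It was 1 in the deposited values, 1 with only the 6 arrays and 1 with median scaling.

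Several genes of growth factor signalling to vessels moved the same way. Vegfc, the lymphatic growth factor, read 9.72, 9.57 and 9.49 in PeriFibro and 8.13, 8.12 and 8.13 in Fibro, 2.75-fold higher (adjusted p = 0.0090, limma), and was the 1 called gene of 13 tested in VEGF and angiopoietin signalling (median 0.81). Of 13 BMP and ALK1 genes, 11 had a positive difference, and 3 were called higher and 1 lower, against 2.75% and 3.34% of all genes. Smad1, Smad5 and Id1, which carry and report the BMP signal, were 2.00-fold, 2.35-fold and 2.17-fold higher (adjusted p = 0.041, 0.016 and 0.042), whereas Id2 was 3.67-fold lower (adjusted p = 0.038). Other probes disagreed for the Smads, with differences of -0.28 to 0.82 for Smad1 and 0.16 for Smad5. No BMP gene kept its call with every array left out, and none was called without PeriFibro 1 or PeriFibro 2 or with only the 6 arrays. The latent ligand Tgfb3 read 7.06, 6.94 and 6.94 against 5.68, 5.27 and 6.03 and was 2.50-fold higher (adjusted p = 0.019), and the co-receptor Tgfbr3 was 2.30-fold higher (adjusted p = 0.030). These were 2 of 11 TGF-beta genes tested, whose median was -0.23, and neither was called without PeriFibro 2 or Fibro 1, or in the deposited values. A second Tgfbr3 probe differed by 0.16. The Wnt receptor Fzd6 was 2.84-fold higher (adjusted p = 0.0049) with any 1 array left out. The PDGF and IGF lists held no call (5 and 10 genes tested).

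Markers of endothelial cells moved with these genes. All 19 tested members of the pan-endothelial list had a positive difference (median 1.21), and 13 did not overlap between the groups (13.6% of all genes did so upwards). Called higher were 2, against 2.75% of all genes: the transcription factor Sox18 (2.58-fold, adjusted p = 0.0087, limma) and Mmrn2 (3.59-fold, adjusted p = 0.037). Pecam1, the adhesion molecule CD31, read 12.73, 12.24 and 10.90 in PeriFibro and 10.81, 9.89 and 10.74 in Fibro, a difference of 1.48 that was not called (adjusted p = 0.12). PeriFibro replicate 3 was close to the Fibro values. The summed linear signal of the 19 genes was 118000 to 181000 in PeriFibro and 51900 to 83700 in Fibro. Of 13 capillary and arterial genes, Gja4, a gap junction protein of arterial endothelium, and Hey1 were called (median 1.17). Of 9 lymphatic genes, Ccl21a, Mmrn1, Reln and Fxyd6 were called (median 1.34), but Prox1, the transcription factor that defines lymphatic endothelium, was detected on 2 PeriFibro and no Fibro array (1.05, adjusted p = 0.12). The part of endothelial RNA in the Notch, VEGF and BMP differences was not tested.

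No pericyte marker passed the test. Of 14 tested, 13 had a positive difference and 10 did not overlap upwards (13.6% of all genes), with a median of 1.14, which was 0.28 in the deposited values. Pdgfrb, the receptor that holds pericytes on vessels, read 7.22, 6.80 and 7.23 in PeriFibro and 5.64 to 6.08 in Fibro, 2.25-fold apart without overlap but not called (adjusted p = 0.13, limma). Cspg4, the pericyte proteoglycan NG2, differed by 0.61 (adjusted p = 0.24). The summed signal of the list was 7500 to 11400 in PeriFibro and 3570 to 4690 in Fibro. Anpep, the aminopeptidase CD13, was the exception at -1.69 (adjusted p = 0.087). No smooth muscle, alveolar fibroblast or adventitial fibroblast marker was called (10, 12 and 11 genes tested, medians 0.32, 0.24 and 0.42). Acta2, smooth muscle actin, read 11.26, 10.53 and 11.66 against 10.86 to 11.16, and the groups overlapped.

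Few collagen and basement membrane genes passed the test, and the difference between these lists was not tested. None of 10 fibrillar collagen genes was called (median 0.28), although 9 had a positive difference and 2 did not overlap upwards (13.6% of all genes). Col1a1 read 6.98, 6.43 and 6.96 in PeriFibro and 5.96, 5.65 and 6.53 in Fibro (0.75, SE 0.52, adjusted p = 0.49, limma). Col3a1 read 5.74, 5.25 and 8.03 against 5.08, 6.56 and 6.39, so that PeriFibro replicate 3 was above the Fibro values and the other PeriFibro replicates were among them. The lower of these Col1a1 and Col3a1 values were close to the lowest signal of a detected probe, 4.66 to 4.81 on the 6 arrays. Of 15 basement membrane genes, 14 had a positive difference (median 1.23, and 0.67 in the deposited values) and 10 did not overlap upwards, and 1, Nid2, the laminin linker nidogen 2, was called. It read 7.42, 7.25 and 6.85 against 5.51, 5.79 and 5.56 and was 2.94-fold higher (adjusted p = 0.012), a call lost without PeriFibro 1 and in the deposited values. Col4a1 (1.45, adjusted p = 0.089) and Sparc (1.67, adjusted p = 0.068) were larger than most but did not pass.

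Among other matrix genes the calls were few and all but 1 pointed to PeriFibro. Over all genes, 2.75% were called higher and 3.34% lower. Ltbp4 and Emilin1, of elastic fibres, were 3.44-fold and 2.11-fold higher (adjusted p = 0.035 and 0.043, limma), 2 of 12 tested. Serpinh1, the collagen chaperone HSP47, read 13.36, 13.14 and 13.16 in PeriFibro and 11.44, 11.80 and 11.76 in Fibro and was 2.94-fold higher (adjusted p = 0.049), 1 of 15 collagen folding genes. P3h4, which takes part in lysine hydroxylation of collagen and was on none of the lists, was 2.70-fold higher (adjusted p = 0.0094) with any 1 array left out. The matricellular gene Thbs2 was 2.29-fold higher (adjusted p = 0.030). Adamts4, an aggrecanase, was 2.23-fold higher (adjusted p = 0.021), and Mmp9, a gelatinase of neutrophils and macrophages, 5.16-fold lower (adjusted p = 0.048), the 2 calls among 17 proteases and inhibitors. The calls of Emilin1, Serpinh1 and Thbs2 were lost without any 1 of the 6 arrays, those of Ltbp4 and Mmp9 without any array other than Fibro 2, and that of Adamts4 without PeriFibro 1, PeriFibro 2, Fibro 1 or Fibro 3. Fn1 read 7.60, 8.33 and 6.02 against 10.43, 7.84 and 8.48 and overlapped. Of 7 caveolar genes, Ehd2 and Cavin3 were 2.43-fold and 2.62-fold higher (adjusted p = 0.014 and 0.038), and the integrin Itga2 was 2.68-fold higher (adjusted p = 0.040). None of these 3 calls held without Fibro 1.

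Many listed chemokines and cytokines were lower in PeriFibro than in Fibro. Of 24 CC and CXC chemokines tested, 10 were called lower and none higher, against 3.34% of all genes, with a median of -1.68. The list did not hold the CC chemokines Ccl21a and Ccl21c, which were called higher in PeriFibro. The groups did not overlap downwards for 11 of the 24 (9.58% of all genes). Ccl24, the eosinophil attractant eotaxin-2 of alternatively activated macrophages, had the largest difference of any called gene. It read 5.99, 5.34 and 5.64 in PeriFibro and 9.04, 8.48 and 10.59 in Fibro, a log2 difference of -3.71 (SE 0.45, limma adjusted p = 0.0040), or 13.1-fold lower. Ccl4, a macrophage inflammatory protein, read 10.65, 11.35 and 10.07 against 13.92, 12.47 and 13.30, 5.83-fold lower (adjusted p = 0.0087). The groups were apart for both, as the rule for the largest differences required, and both calls held with any 1 array left out. The monocyte chemokines Ccl2 and Ccl7 were 5.61-fold and 5.16-fold lower (adjusted p = 0.030 and 0.015). For Ccl2, PeriFibro replicate 3 (7.71) was close to the lowest Fibro value (8.07), while PeriFibro replicates 1 and 2 read 5.33 and 5.80. Ccl3 (7.73-fold, adjusted p = 0.033) and Cxcl2 (6.51-fold, adjusted p = 0.030) were also lower. The number of chemokines called was 2 without PeriFibro 1, 3 without Fibro 1, 5 without PeriFibro 2 and 7 to 9 without any other array, and it was 5 with only the 6 arrays and 6 with median scaling.

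Of 15 inflammatory cytokines, Tnf, Il1b, Il10, Osm and Tnfsf9 were called lower, against 3.34% of all genes. Tnf read 6.43, 6.55 and 5.18 in PeriFibro and 10.46, 8.67 and 8.38 in Fibro, 8.66-fold lower (adjusted p = 0.026, limma). Il1b read 11.05, 12.42 and 10.61 against 14.28, 12.60 and 13.45, 4.24-fold lower (adjusted p = 0.030), with PeriFibro replicate 2 next to Fibro replicate 2. Tnfsf9, the ligand of the T cell co-receptor 4-1BB, was 3.68-fold lower (adjusted p = 0.0089) and the only 1 of the 5 whose call held with any array left out. Without PeriFibro 1, PeriFibro 3 or Fibro 1, 1 gene of the list was called, as in the deposited values and with only the 6 arrays. Il6 (-0.92, adjusted p = 0.24), Cxcl1 (-1.18, 0.27) and Cxcl10 (-1.96, 0.39) overlapped between the groups and were not called.

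Many Fc receptor, ITAM adaptor and Toll-like receptor genes were lower. Of 14 Fc receptors and ITAM adaptors, which couple immunoglobulin and lectin binding to Syk, all had a negative difference (median -1.89). Among these, 9 were called lower, against 3.34% of all genes. Fcer1g, the shared gamma chain, read 11.51, 12.52 and 12.21 in PeriFibro and 14.03, 13.83 and 13.56 in Fibro, 3.31-fold lower (adjusted p = 0.0094, limma). Fcgr2b, the inhibitory Fc receptor, was 4.69-fold lower (adjusted p = 0.0094) and Btk, a Tec family kinase, 4.67-fold lower (adjusted p = 0.0087). Of 20 genes of Toll-like receptor signalling, 7 were called lower (median -0.90). Tlr7, an endosomal RNA sensor, read 6.14, 6.30 and 6.10 against 8.68, 8.34 and 7.76, 4.22-fold lower (adjusted p = 0.0043). Tlr1 (3.60-fold, adjusted p = 0.0049) and Ticam2, the adaptor TRAM (3.09-fold, adjusted p = 0.0087), were also lower. These 6 genes did not overlap between the groups, and their calls held with any 1 array left out. Without PeriFibro 1 the calls were 4 of the Fc and ITAM genes and 4 of the Toll-like receptor genes, and without Fibro 1 they were 5 and 5. In the deposited values 4 of the Fc and ITAM genes and 0 of the Toll-like receptor genes were called, the latter with a median of -0.37. There Tlr7 differed by -0.70 (adjusted p = 0.015, limma), Ticam2 by -0.37 (adjusted p = 0.012) and Tlr1 by -0.36 (adjusted p = 0.024), all under 2-fold.

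The calprotectin pair S100a8 and S100a9, cytosolic proteins of neutrophils and monocytes, was much lower in PeriFibro. S100a9 read 8.29, 8.80 and 8.85 in PeriFibro and 13.12, 10.43 and 12.23 in Fibro, 9.71-fold lower (adjusted p = 0.0080, limma), and S100a8 read 9.96, 10.49 and 11.15 against 14.23, 12.53 and 13.26, 6.99-fold lower (adjusted p = 0.0049). Fibro replicate 2 was the lowest Fibro array for both, and both calls held with any 1 array left out. With Mmp9 these were the 3 called of 15 neutrophil genes (median -1.92), against 3.34% of all genes called lower. Without Fibro 2 there were 9. Arg1, arginase of alternatively activated macrophages, read 8.51, 9.24 and 8.44 against 11.18, 11.09 and 11.19, 5.35-fold lower (adjusted p = 0.0035). Mgl2, a macrophage galactose lectin, was 4.99-fold lower (adjusted p = 0.0059). F13a1, factor XIII of tissue macrophages and monocytes, read 7.63, 7.87 and 7.55 against 10.81, 10.77 and 9.59, 6.53-fold lower (adjusted p = 0.0060).

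Of 10 MHC class II genes, which present antigen to CD4+ T cells, all had a negative difference (median -1.71). Among these, 6 were called lower, against 3.34% of all genes. None of 11 class I genes was called (median -0.02), and the difference between the classes was not tested. H2-DMb1, of the peptide-exchange factor DM, read 9.81, 11.27 and 10.39 in PeriFibro and 11.98, 12.09 and 12.29 in Fibro, 3.10-fold lower (adjusted p = 0.013, limma), and held with any 1 array left out. H2-Aa was 3.53-fold lower (adjusted p = 0.034). The class II count fell to 1 without PeriFibro 1, Fibro 1 or Fibro 3, to 0 with only the 6 arrays and to 3 with median scaling. The invariant chain Cd74 read 12.97, 14.17 and 11.62 against 14.55, 13.57 and 14.46 and overlapped. None of 21 interferon-stimulated genes was called (median -0.31). All 8 leukocyte integrins had a negative difference (median -1.18), and only Itgae was called lower.

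General leukocyte markers moved with all of these groups. Of 15 pan-leukocyte genes, all had a negative difference and 9 were called lower (median -1.67), against 3.34% of all genes. Ptprc, CD45, was below detection on all 3 PeriFibro arrays and read 5.65, 5.43 and 6.56 in Fibro, at least 2.23-fold lower (adjusted p = 0.034, limma). This bound sets PeriFibro at the lowest signal of a detected probe. Other Ptprc probes differed by -0.18 and 0.00, and the call was kept in 1 of the 6 fits with an array left out, that without Fibro 2. Coro1a, a leukocyte actin regulator, was 3.55-fold lower (adjusted p = 0.0060), Was, the Wiskott-Aldrich protein, 4.22-fold lower (adjusted p = 0.0035) and Rac2 4.50-fold lower (adjusted p = 0.0048). The summed signal of the list was 18500 to 28900 in PeriFibro and 45400 to 66100 in Fibro. The same sums were 12400 to 22600 and 30100 to 39100 for 13 macrophage genes, 2750 to 4360 and 9080 to 38700 for 15 neutrophil genes, 2270 to 2710 and 3100 to 7850 for 11 T and NK cell genes, and 585 to 1050 and 1340 to 6940 for 8 B and plasma cell genes. In each of these lists the PeriFibro arrays lay below the Fibro arrays, as they did for the interstitial macrophage and dendritic lists. The alveolar macrophage sums overlapped (5520 to 10800 in PeriFibro and 6100 to 9040 in Fibro). Sums of the mast cell and basophil list did too (6400 to 14200 and 3430 to 12100), and neither list held a call. The part of leukocyte RNA in the chemokine, cytokine, receptor and class II differences was not tested. Coro1a, Cd52 and Fcer1g were detected on all 6 arrays, PeriFibro included.

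**Figure D2:**
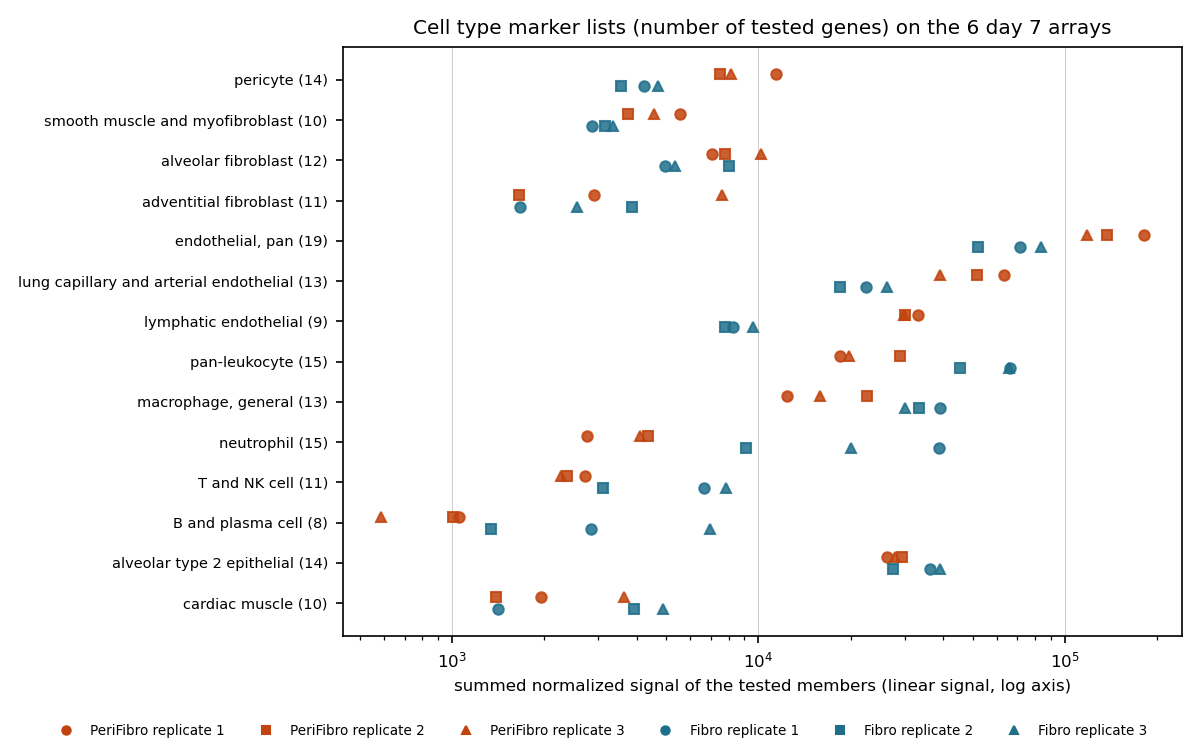
Summed normalized signal (linear signal on a log axis) of the tested genes of 14 cell type marker lists, for each of the 6 day 7 arrays; colour is the population and the symbol is the replicate. The pericyte, smooth muscle and endothelial sums are higher on every PeriFibro array. The leukocyte, macrophage, neutrophil, T, NK and B cell sums are higher on every Fibro array. The alveolar fibroblast, adventitial fibroblast, alveolar type 2 and cardiac sums overlap.

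The transcription factor genes Spi1, Irf5 and Batf3 were lower. Spi1, which codes for PU.1, the factor that specifies macrophages and neutrophils, read 6.15, 6.87 and 6.35 in PeriFibro and 8.38, 8.04 and 7.97 in Fibro, 3.19-fold lower (adjusted p = 0.0086, limma). Irf5, an inducer of inflammatory cytokines, read 7.66, 8.09 and 7.07 against 10.37, 9.70 and 10.28, 5.70-fold lower (adjusted p = 0.0043). Batf3, of cross-presenting dendritic cells, was 4.16-fold lower (adjusted p = 0.0090). The groups were apart for all 3 genes and the calls held with any 1 array left out. In the deposited values Irf5 was called, whereas Spi1 (-0.56, adjusted p = 0.024, limma) and Batf3 (-0.81, adjusted p = 0.011) were under 2-fold.

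Promoters of called genes were read for the PU.1 letters GAGGAAGT on either strand. RefSeq windows of 300 bases around transcript starts (GRCm38.p6) matched 311 of the 416 lower genes, with 412 windows, and 237 of the 342 higher genes, with 317 windows. The letters were in 39 of the 412 windows of lower genes (9.47%), in 7 of 317 windows of higher genes (2.21%), in 3.23% of the windows of all tested genes and in 3.20% of all windows. A match is a description of these letters and not a binding site, and windows of a gene can overlap. Whether the level of Spi1 has a part in these shares was not tested, nor was the part of leukocyte RNA. The 200 bases before the start are shown for 4 lower genes whose window holds the letters, in capitals, read towards the gene; ACTTCCTC is the same motif on the other strand.
S100a8, calprotectin, chr3:90668871-90669070, plus strand: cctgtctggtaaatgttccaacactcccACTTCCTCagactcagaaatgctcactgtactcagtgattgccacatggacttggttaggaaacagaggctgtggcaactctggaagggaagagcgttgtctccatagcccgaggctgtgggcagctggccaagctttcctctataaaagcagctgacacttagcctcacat
Cd72, a B cell and myeloid co-receptor, chr4:43454627-43454826, minus strand: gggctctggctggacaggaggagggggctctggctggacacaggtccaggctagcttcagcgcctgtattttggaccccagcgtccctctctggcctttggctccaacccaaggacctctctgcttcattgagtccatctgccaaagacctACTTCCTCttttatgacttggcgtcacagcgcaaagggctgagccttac
Vav1, a guanine nucleotide exchange factor of blood cells, chr17:57278900-57279099, plus strand: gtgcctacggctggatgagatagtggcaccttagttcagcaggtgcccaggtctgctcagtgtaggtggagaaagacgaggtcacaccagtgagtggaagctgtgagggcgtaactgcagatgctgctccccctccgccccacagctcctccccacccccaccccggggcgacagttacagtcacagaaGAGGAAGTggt
Tlr1, a receptor of bacterial lipopeptides, chr5:64933559-64933758, minus strand: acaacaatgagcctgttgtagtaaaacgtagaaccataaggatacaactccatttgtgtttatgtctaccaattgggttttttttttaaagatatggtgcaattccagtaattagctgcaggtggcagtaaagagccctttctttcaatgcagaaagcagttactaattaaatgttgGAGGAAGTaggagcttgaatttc
The motif starts at position -172 from the transcript start in S100a8, -49 in Cd72, -11 in Vav1 and -23 in Tlr1. Cd72 was 6.11-fold lower (adjusted p = 0.013, limma), a call lost without Fibro 1, and Vav1 4.86-fold lower (adjusted p = 0.011) with any 1 array left out.

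Other motifs were searched in the same windows, on both strands. The AP-1 letters TGANTCA were in 8.50% of the lower and 5.68% of the higher windows, against 5.79% of all tested, and the interferon-response (ISRE-like) motif in 5.10%, 2.52% and 3.12%. The RBPJ letters GTGGGAA, read by the Notch complex, were in 7.52% of the lower, 5.05% of the higher and 6.06% of all tested windows, and the TEAD letters GGAATG in 11.4%, 15.5% and 12.5%. TATAAA was in 10.2%, 5.99% and 8.44%. The ETS letters CCGGAAGT, which share 6 letters with the PU.1 motif, were in 3.16%, 2.21% and 7.03%. Of all windows, 7.81% held the AP-1, 3.44% the interferon-response, 6.38% the RBPJ, 14.7% the TEAD, 13.6% the TATA and 3.89% the ETS motif. The kappa B motif was in 11.7% of the lower, 14.8% of the higher, 10.5% of the tested and 8.46% of all windows. The window of Cxcl2, which was lower, holds the kappa B match printed in capitals, made of a pair of overlapping matches.
Cxcl2, chr5:90903699-90903898, plus strand: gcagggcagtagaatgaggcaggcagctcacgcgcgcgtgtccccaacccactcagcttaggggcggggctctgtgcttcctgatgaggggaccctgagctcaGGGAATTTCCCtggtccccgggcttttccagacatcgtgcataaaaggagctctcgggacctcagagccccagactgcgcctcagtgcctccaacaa
The gene read 8.08, 9.14 and 9.07 in PeriFibro and 11.82, 11.08 and 11.51 in Fibro, without overlap, and its call was lost without PeriFibro 1, PeriFibro 2, Fibro 1 or Fibro 3.

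**Figure D3:**
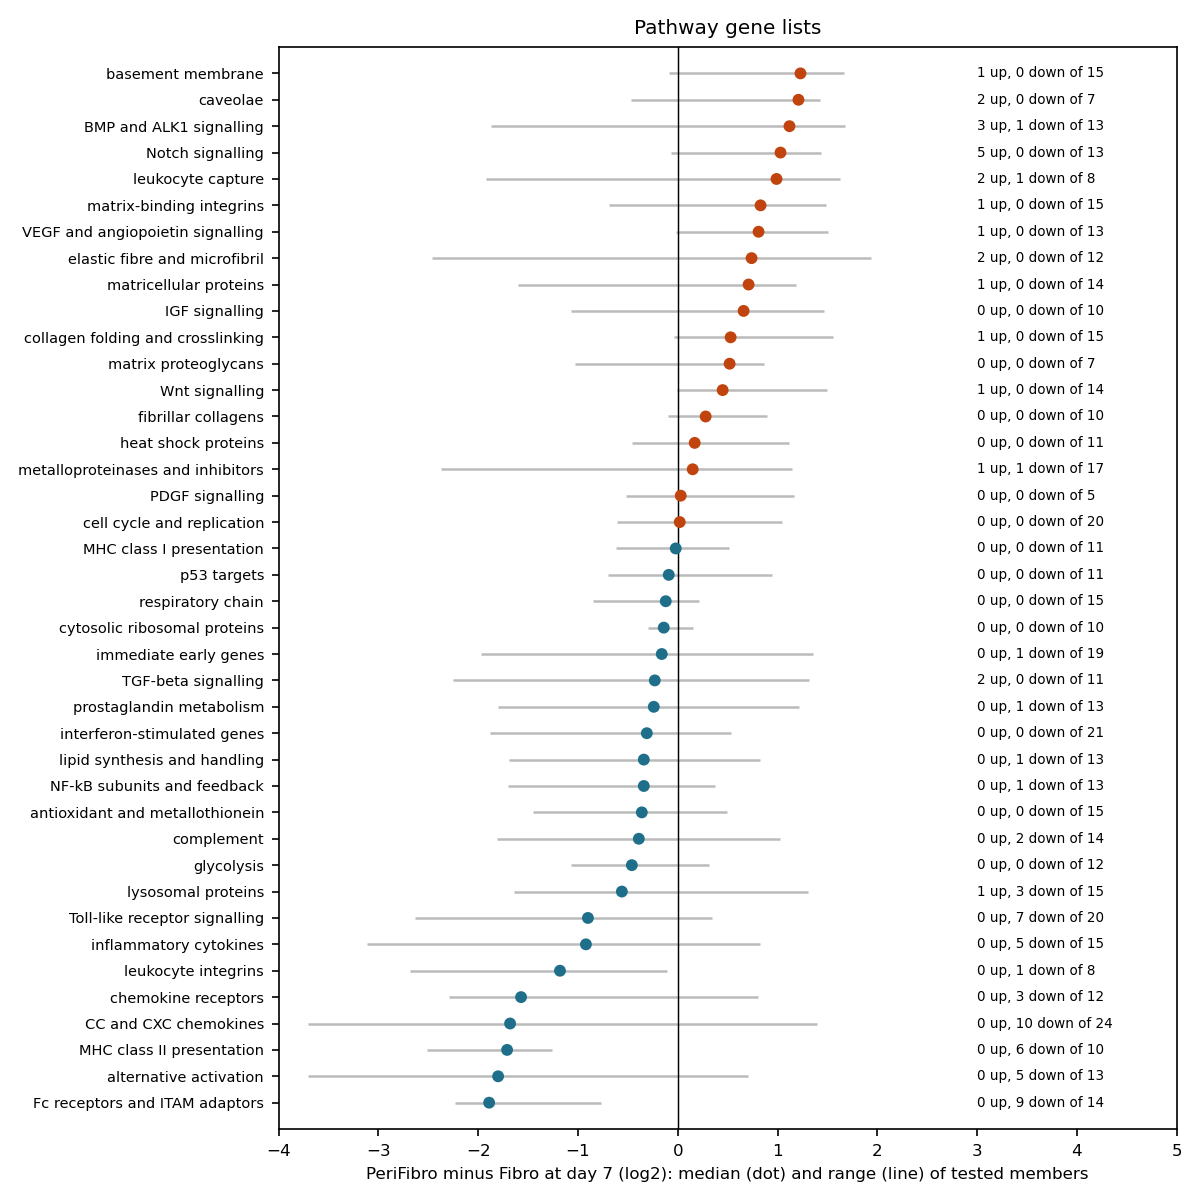
Median (dot) and range (line) of the PeriFibro minus Fibro log2 difference at day 7 over the tested members of each of 40 pathway lists, with the number of members called higher and lower. Basement membrane, caveolar, BMP and Notch genes have the highest medians (1.23, 1.21, 1.12 and 1.03) and Fc receptor, alternative activation, class II and chemokine genes the lowest (-1.89, -1.80, -1.71 and -1.68).

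Many lists of general cell function held few or no calls. No gene was called among 20 of the cell cycle (median 0.02), 11 of heat shock, 11 p53 targets (-0.09), 15 of the antioxidant and metallothionein list (-0.36), 12 of glycolysis (-0.46), 10 cytosolic ribosomal proteins (-0.14) or 15 of the respiratory chain (-0.12). The groups did not overlap upwards for 3 heat shock, 3 p53 and 1 antioxidant gene (13.6% of all genes). They did not overlap downwards for 4 antioxidant, 3 glycolysis and 2 p53 genes (9.58% of all genes). In the cell cycle, ribosomal and respiratory chain lists at most 1 gene did so in each direction. Of 19 immediate early genes only Egr2 was called, 3.91-fold lower (adjusted p = 0.014, limma), a call lost without PeriFibro 1 or Fibro 1. Of 15 lysosomal genes the cathepsins Ctsc, Ctsh and Ctsz were called lower (2.11-fold for Ctsc, 3.13-fold for Ctsh and 2.83-fold for Ctsz). Over all genes, 3.34% were called lower. Ctsa was called 2.48-fold higher, although other Ctsa probes gave -1.01 to 0.44. The called genes of the epithelial lists were also lower. Napsa, a protease of alveolar type 2 cells, read 9.30, 10.36 and 9.13 in PeriFibro and 11.84, 11.70 and 12.13 in Fibro, 4.91-fold lower (adjusted p = 0.0046), and Cdh1, E-cadherin, was 2.70-fold lower (adjusted p = 0.046), the 2 calls of 14 type 2 genes (median -1.10). The surfactant gene Sftpc differed by -1.49 (adjusted p = 0.067). No gene was called among 8 of alveolar type 1 cells (median -0.37, 3 positive and 5 negative). Their summed signal was higher on every PeriFibro array (11800 to 15800 against 9750 to 11400). The airway list held 1 lower call of 10 (median -0.83), with 3 genes not overlapping downwards and 1 upwards.

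The day 7 differences were mostly present in uninjured lung as well, with the reservation that the uninjured mice were female and the bleomycin mice male, so that injury and sex cannot be told apart. In the 2 uninjured arrays of each population, 336 of the 342 higher genes (98.2%) and 411 of the 416 lower genes (98.8%) had the same sign as at day 7, as did 72.4% of all genes. Fewer passed the test there: 29 genes were called higher (0.233%) and 263 lower (2.11%) in uninjured PeriFibro. The genes called at both times were 17 higher, among them Mmrn1, Reln, Pcsk6, Slc45a3 and Vegfc, and 111 lower, among them S100a8, S100a9, Klrd1, Irf5, Spi1 and Cd52. These were 4.97% of the higher and 26.7% of the lower day 7 calls, and 58.6% and 42.2% of the uninjured calls. No gene was called in opposite directions.

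Some genes called at day 7, among them Ccl24 with the largest difference, had a smaller or no counterpart in uninjured lung. Ccl24 differed by -3.71 at day 7 and 0.21 in uninjured arrays, F13a1 by -2.71 and -0.55, Tlr1 by -1.85 and -0.39, and Il10 by -2.32 and -0.49. Among the higher genes Hes1 differed by 1.39 and 0.18, Nrarp by 1.03 and 0.06, Id1 by 1.12 and -0.05, and Apold1, an endothelial early response gene, by 2.22 and 0.75. None of these changes passed the test of the difference between the times. That test called 16 genes (0.129%; 417 at an unadjusted p under 0.05, limma), and 1 of them, Gdf3, was also called at day 7. Gdf3, a TGF-beta family ligand, read 4.71, 4.97 and 4.79 in PeriFibro and 7.09, 7.58 and 6.82 in Fibro at day 7, 5.05-fold lower (adjusted p = 0.0035), with a difference of -0.09 in uninjured arrays and a change of -2.25 (adjusted p = 0.049). That change was called in 1 of the 6 fits with 1 array left out.

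**Figure D4:**
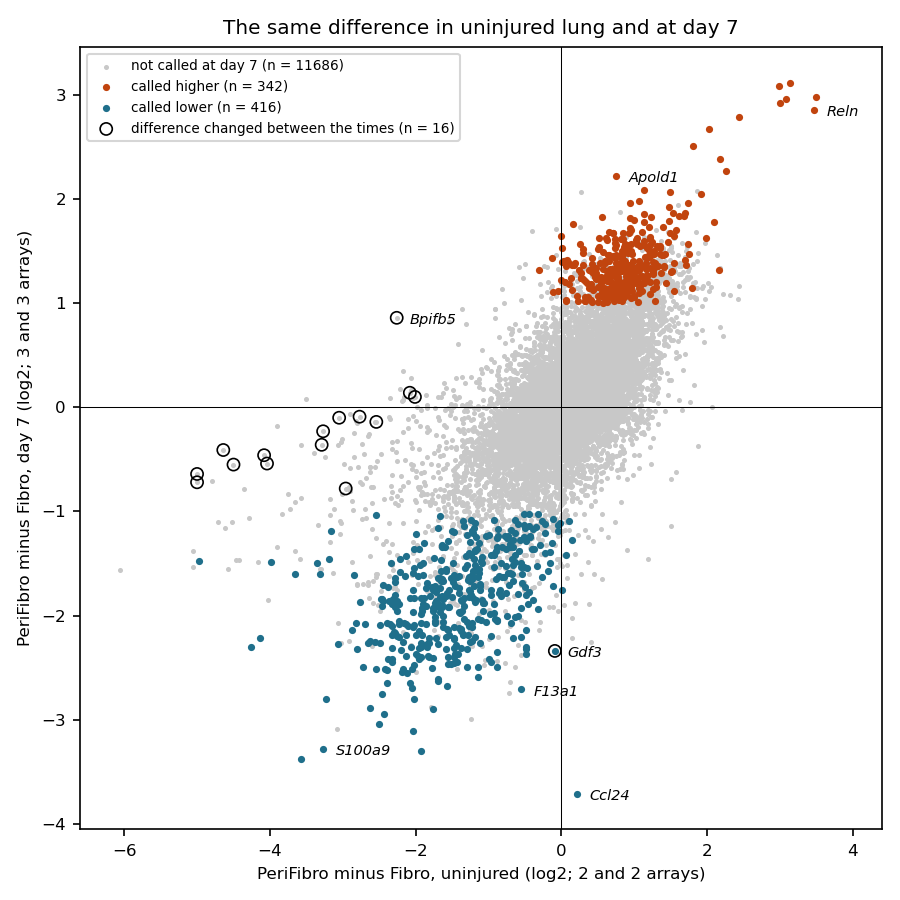
PeriFibro minus Fibro log2 difference in uninjured lung (horizontal axis, 2 and 2 arrays) against day 7 (vertical axis, 3 and 3 arrays) for 12444 genes; colours mark genes called at day 7 and circles the 16 genes whose difference changed between the times. Called genes lie mostly in the quadrants of equal sign, and 15 of the 16 circles lie on the left, below 0 in uninjured lung and nearer to 0 at day 7.

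The count of calls depended on which array was left out. Without PeriFibro 1 there were 69 genes called higher and 151 lower, and without Fibro 1 there were 63 and 178. Without PeriFibro 2 the counts were 158 and 295, and without Fibro 3 they were 178 and 279. Without PeriFibro 3 they were 346 and 351, and without Fibro 2, 364 and 599. Of the 342 higher calls, 276 were lost without PeriFibro 1 and 281 without Fibro 1, and of the 416 lower calls 265 and 248.

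**Figure D5:**
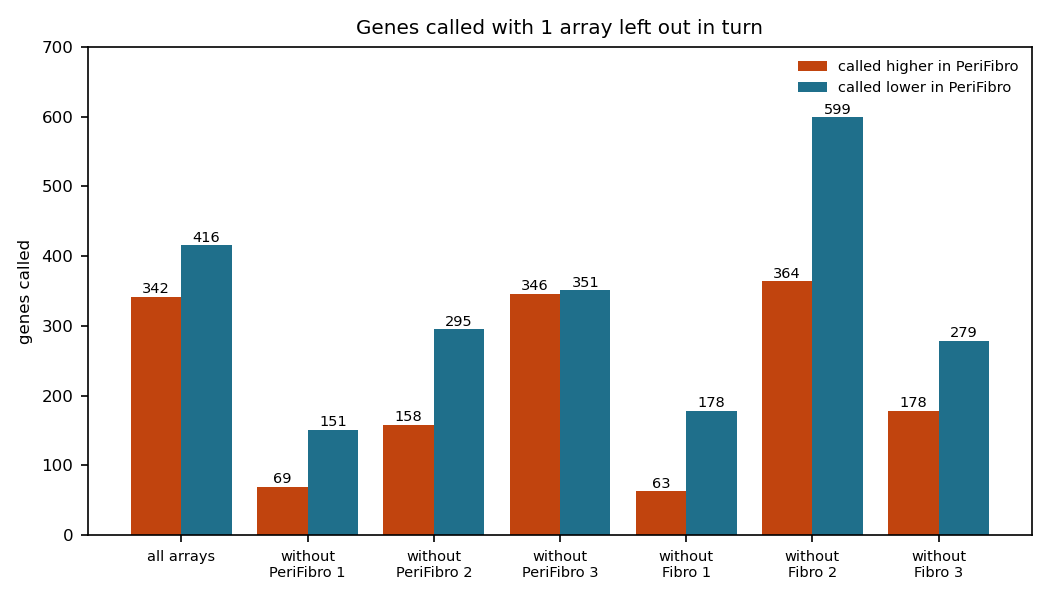
Number of genes called higher and lower in PeriFibro (vertical axis) with all arrays and with each of the 6 day 7 arrays left out. The fewest calls, 69 and 151 or 63 and 178, come without PeriFibro 1 or Fibro 1.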

How the data were processed

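Sorted lung cells were profiled on Illumina MouseWG-6 v2.0 arrays. The authors deposited, for each of 14 arrays, the unnormalized signal intensity of 45281 probes with its detection p-value, and a table of log2 values made with lumi (variance stabilisation and quantile normalization, no version given), whose column medians are 6.904 to 6.905. The raw intensities were used for the main results and the log2 values as an alternative. The authors hybridised the samples to the slides at random and removed outlier samples by principal component analysis, but the sources used here do not say whether the 14 arrays include those samples. The slide of each array is not given in the sources used here, so no slide term was fitted.

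The neqc function (limma 3.58.1, R 4.3.3) estimated background from detection p-values, added 16 to each signal and quantile-normalized the arrays. Probes detected on at least 2 arrays and with 1 gene symbol in the platform annotation were kept (20162 of 45281; 34885 have 1 symbol, 18 several and 10378 none), and each of 12444 genes was followed by its kept probe with the highest mean. Of these genes, 5116 had several kept probes. A linear model with 6 groups over all 14 arrays, moderated by empirical Bayes, gave the differences, their standard errors and two-sided p-values (8 residual and 3.43 prior degrees of freedom), adjusted over all 12444 genes by Benjamini-Hochberg. A gene was called at an adjusted p under 0.05 and 2-fold. A group below detection on all its arrays is given a bound, from the lowest signal among detected probes of each array (4.66 to 4.81). The fit was tested on simulated data.

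Genes named are the 25 largest called differences in each direction without overlap, called members of 64 gene lists and up to 4 further members of each by mean level, genes named in the study's text, the genes whose difference changed between times, and sex-linked genes as a check. Outside that rule, Anpep, Cspg4, Dhh, P3h4, Prox1, Sema3a and the family members under the other observations were chosen after their values were seen. The members and lists were chosen with earlier results of these data known. Of 890 list genes, 733 were tested; the others were not analysed here. Motif searches used RefSeq promoter windows of build GRCm38.p6.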

Additional observations from a re-analysis of the deposited data

Results flagged for a closer look

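The PeriFibro minus Fibro difference changed between uninjured lung and day 7 for 16 genes (limma, test of the difference of differences, adjusted p under 0.05 and 2-fold), and the uninjured mice were female and the day 7 mice male, so that injury and sex cannot be told apart. The change was positive for 15 genes: the difference was negative in uninjured lung, where Fibro was higher, and nearer to 0 or positive at day 7. It was 4.35 for Bex4, 4.29 for Pla2g1b, 4.23 for Lgi3 and 3.95 for Scgb1c1. It was 3.62 for Acoxl, 3.51 for Npw, 3.12 for Bpifb5 and 3.04 for Irx2. It was 2.95 for Kcne2, 2.93 for Atp6v1c2, 2.68 for Tinag and 2.40 for Lrp2, the endocytic receptor megalin. It was 2.22 for Lamp3, a lamellar body protein of alveolar type 2 cells, 2.18 for Matn4 and 2.12 for Ppp1r1b. The change was -2.25 for Gdf3.

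The changes of Acoxl, Atp6v1c2, Bex4, Pla2g1b and Tinag were called with any 1 of the 6 day 7 arrays left out, and those of Lamp3 and Matn4 in none of these fits. No uninjured array was left out, so these fits do not show how far a change rests on 1 uninjured array. The difference of Bex4 was -5.00 in uninjured lung and -0.64 at day 7. Day 7 minus uninjured, Fibro differed by -4.48 for Lgi3 at most (adjusted p = 2.8e-04, limma) and by 2.77 for Gdf3 (adjusted p = 2.8e-04), and Bpifb5 was the gene of the 16 that did not pass in Fibro (-1.36, adjusted p = 0.087). In PeriFibro none of the 16 passed, and Bpifb5 differed by 1.76 at most (adjusted p = 0.088). Alveolar type 2 markers moved with these genes: of 14 tested, 12 were called lower in uninjured PeriFibro (median difference -4.28) and 2 at day 7 (median -1.10). The part of epithelial RNA in the changes was not tested.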

How the results depend on the processing

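Of the gene counts, 342 higher, 416 lower, 16 with a changed difference and 118 called list members, most moved by over 1.5 times under some alternative. The deposited normalized values gave 81 higher and 129 lower genes and 69 list members. No background correction gave 166 and 228. Median scaling gave 117 and 172, 6 changed and 57 list members, with the median of all genes at 0.12. No detection filter gave 218 and 272 and 73 list members. Only the 6 arrays gave 128 and 128 and 47 list members. Array weights gave 727 and 821, 32 changed and 237 list members. The count of changed differences was 25 with an offset of 50, 9 with a stricter filter, 32 with the mean of a gene's probes and 39 with trend and robust variance. With 1 array left out, the counts ranged from 63 to 364 higher, 151 to 599 lower, 5 to 16 changed and 42 to 133 list members, and the share of calls that were higher was 45.1% with all arrays, 31.4% without PeriFibro 1, 34.9% without PeriFibro 2 and 26.1% without Fibro 1. The cause was not tested. Of 19 uncalled genes checked under the alternatives, 2 changed sign. Acta2 (0.14) was -0.10 with array weights, -0.04 without PeriFibro 3 and Fibro 2 together and -0.11 to 0.45 with 1 array left out. Col3a1 (0.33) was -0.39, -0.24 and -0.52 to 0.87 under the same alternatives. Of 100 called genes named, 0 changed direction under the alternatives run, but 55 lost their call in the deposited values, 49 with only the 6 arrays, 45 with median scaling, 33 with no background correction, 29 with no detection filter, 51 without PeriFibro 1 and 52 without Fibro 1.

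The labels do not say whether the replicate numbers pair the samples. Deviations of same-numbered arrays from their group means correlated at 0.54, -0.41 and -0.30. Between differently numbered arrays, PeriFibro 3 correlated at 0.68 with Fibro 2 and at -0.68 with Fibro 1. Deviations within a group of 3 depend on each other, so these values cannot decide on pairing. With the replicate block, 286 genes were higher, 383 lower and 7 changed. Precision is limited by 3 arrays a group, and values near background have no order.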

Other observations

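Several gene families that the lists did not cover stood out after the values were seen, so they are described with counts and no test, beside 2.75% of all genes called higher and 3.34% called lower. Of 22 Hox genes tested, which set positional identity in mesenchyme, 7 were called higher in PeriFibro and none lower (median 0.58), namely Hoxa2, Hoxa4, Hoxa5, Hoxa7, Hoxb2, Hoxb5 and Hoxd8. Hoxa7 read 8.49, 7.96 and 8.60 in PeriFibro and 6.61, 7.19 and 6.57 in Fibro, 2.94-fold higher (adjusted p = 0.0087, limma), and Hoxa4 7.03, 6.92 and 6.76 against 5.85, 5.47 and 5.51, 2.45-fold higher (adjusted p = 0.0051). The groups were apart for both genes and both calls held with any 1 array left out. Hoxd8 was below detection on all 3 Fibro arrays and at least 2.45-fold higher in PeriFibro. Of 32 protocadherins, homophilic adhesion molecules whose clustered members share exons, 10 were called higher and none lower (median 0.76).

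Of 5 genes for YAP, TAZ and the TEAD factors they bind, 4 were called higher, Yap1, Wwtr1, Tead2 and Tead4 (median 1.29). Yap1 read 7.75, 7.88 and 7.30 in PeriFibro and 6.28, 6.11 and 6.39 in Fibro, 2.61-fold higher (adjusted p = 0.017, limma), a call lost without PeriFibro 1, PeriFibro 2 or Fibro 1. Tead2 was 3.18-fold higher (adjusted p = 0.012), lost without Fibro 1. Of 15 adhesion GPCRs, 4 were called higher and none lower (median 0.82). Of 22 C-type lectins, 6 were called lower and 1, the endothelial Clec1a, higher (median -0.80). Of 9 TNF ligand family members 4 were called lower and 1 higher. Of 18 TNF receptor family members 5 were called lower and 1, the decoy receptor Tnfrsf11b, higher. Of 8 interferon regulatory factors, Irf4, Irf5 and Irf8 were called lower (median -0.72).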
